A study of Rattus norvegicus and Ovis aries with 113 samples.

Results

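Motor cortex of the sheep was compared with 4 other neocortical regions of the same animals, namely the frontal, prefrontal, posterior parietal and visual cortex. The members were the 5 libraries labelled motor cortex, out of 113 libraries in the whole series, which also holds other sheep brain regions, sheep sperm, and rat brain, sperm and ovary. All neocortical libraries came from 5 post-pubertal male sheep numbered 687, 688, 690, 694 and 699, with 1 library per region and animal, so that 5 motor libraries stood against 20 others. No treatment, strain or allele is given for these animals, and all 25 libraries share sex, species and preparation: bulk tissue of 1 hemisphere, RNA extracted with TRIzol and treated with DNase I, and a Kapa stranded mRNA kit. How the borders of a region were found, and which cortical layers or how much white matter a piece held, is not given in the sources used here. In bulk tissue, fewer cells of a type and less RNA per cell cannot be told apart.

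The motor cortex holds many, though not all, of the neurons through which the neocortex reaches the spinal cord and brainstem. Its layer 5 contains large pyramidal cells with long axons in the corticospinal tract, its layer 6 projects to the thalamus, and its layer 4, the layer that receives sensory input from the thalamus, is thin compared with that of sensory areas. FEZF2 and BCL11B are transcription factors that specify subcerebral projection neurons of layer 5. RORB and CUX2 mark layer 4 and the upper layers.

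The motor libraries held 53.0 ± 4.14 M counted reads (SD, n = 5; range 49.2 to 59.9 M, where M is 1e+06), against 58.8 ± 5.21 M in the 20 others (range 51.0 to 72.4 M). Of 31304 genes in the table, 20045 passed the low-count filter and were tested. Values below are counts per 1e+06 reads (CPM) scaled with trimmed-mean-of-M-values factors, and a list of 5 values follows the order of sheep 687, 688, 690, 694 and 699.

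Before any comparison the labels were checked against the values. Correlations across 16028 genes, which are not independent replicates, were computed among 50 brain libraries of 10 regions, 25 of which were read for this check only. The library labelled motor cortex of sheep 687 was closest to the hippocampus of the same animal (Pearson's r = 0.985) and then to the hippocampus of sheep 690 (0.979). Its median r with the other 24 neocortical libraries was 0.938, below its median with entorhinal cortex (0.959) and hippocampus (0.955). The other 4 motor libraries were each closest to a neocortical library: those of sheep 688 and 690 to the frontal cortex of sheep 694 (0.989 and 0.990), that of sheep 694 to the prefrontal cortex of sheep 688 (0.988) and that of sheep 699 to the motor cortex of sheep 694 (0.976). The frontal library of sheep 694 was in turn closest to the motor cortex of sheep 690 (0.990) and then to that of sheep 688 (0.989). Its median r was 0.984 with visual cortex, 0.979 with motor cortex and 0.975 with frontal cortex. Being closest to another region was not particular to it. The frontal library of sheep 690, for example, was closest to the prefrontal cortex of the same animal (0.992). A pair of further libraries stood lower than most in their median r with the other neocortex. These were the motor cortex of sheep 699 at 0.951 and the posterior parietal cortex of sheep 694 at 0.945.

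**Figure D1:**
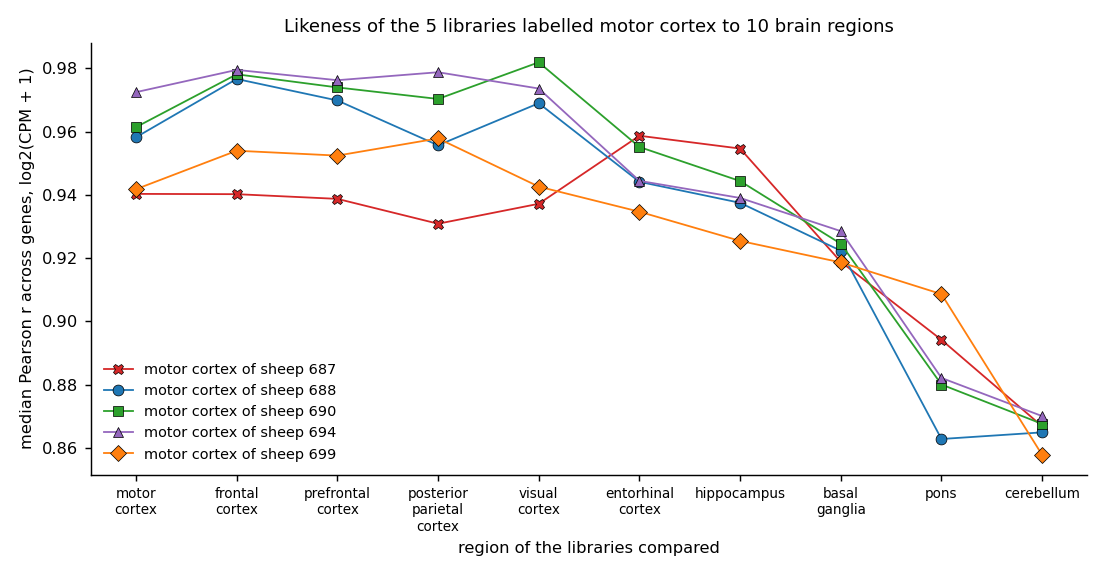
Likeness of the 5 libraries labelled motor cortex to 10 brain regions: each point is the median Pearson's r, across 16028 genes on the log2(CPM + 1) scale, of 1 motor library with the libraries of the region on the horizontal axis, and each line is 1 sheep. The line of sheep 687 is highest at entorhinal cortex (0.959) and hippocampus (0.955), while those of the other 4 sheep are higher at frontal, prefrontal and posterior parietal cortex than at hippocampus.

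Single genes showed the same split. TBR1, a factor of early-born glutamatergic neurons, was at 3.12 CPM in the library labelled motor cortex of sheep 687 and at 26.8 to 78.0 in the other 4. Genes of the ventricle wall went the other way there: TTR, the transthyretin secreted by choroid plexus, was at 740 CPM against 1.44 to 58.5 and FOXJ1, a factor of ciliated ependymal cells, at 24.3 against 0.116 to 0.473. Genes of meninges and fibroblasts went both ways there. DCN, a fibroblast proteoglycan, was at 177 against 3.98 to 12.6. SLC6A13, a GABA transporter of the meninges, and ASPN, a matrix proteoglycan, were lower there. They differed by -1.25 and -1.23 from the mean of that animal's other regions on the log2(CPM + 0.5) scale. The same library held SLC17A7, the vesicular glutamate transporter of cortical excitatory neurons, at 515 CPM and FEZF2 at 30.0 CPM. Its label is kept below as the library labelled motor cortex of sheep 687. The main test and many, though not all, of the gene lists are given with and without it.

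SEMA3E alone passed the test against the mean of the 4 regions. This gene encodes a secreted semaphorin, a guidance cue whose receptor is plexin D1, and it marks deep layer neurons. It was at 109, 37.0, 37.9, 34.6 and 32.3 CPM in motor cortex, against 20.1, 25.3, 14.2, 41.5 and 16.5 in frontal cortex and 6.48, 18.6, 8.83, 10.4 and 7.54 in prefrontal cortex. In posterior parietal cortex it was at 10.8, 15.6, 13.9, 13.6 and 6.89 CPM, and in visual cortex at 30.1, 25.4, 13.3, 17.2 and 9.43. Motor cortex was above the mean of the other regions in 5 of 5 animals, an order that 4.41% of all genes tested shared (6.6% had it below in 5 of 5), and it was the highest of the 5 regions in 4, the exception being sheep 694, whose frontal library was the only 1 of 20 above the lowest motor library. The mean was 50.1 ± 32.8 CPM (SD, n = 5) against 16.3 over the other regions.

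The fitted log2 fold change (log2 change below) of SEMA3E was 1.68 ± 0.23 (SE), with an adjusted p of 0.00936 in edgeR's quasi-likelihood test, and it was the 1 gene called of 20045 tested (0.00499%). Within animals the differences on the log2 scale were 2.87, 0.82, 1.58, 0.93 and 1.71. Without the library labelled motor cortex of sheep 687, which held the highest value, 0 genes were called (0%, with 3354 or 16.6% at an unadjusted p below 0.05), and for SEMA3E the change was 1.29 ± 0.21 and the edgeR adjusted p was 0.0888. Without the motor library of sheep 699 it was 1.66 ± 0.27 with an edgeR adjusted p of 0.0505. Over 22 alternatives the log2 change stayed between 1.12 and 1.89, while the adjusted p ran from 8.93e-08 in DESeq2 to 0.647 without both of these motor libraries.

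The number of calls depended on the tool and on the animals. At an unadjusted p below 0.05, there were 3062 genes (15.3%), 1554 higher in motor cortex (7.75%) and 1508 lower (7.52%), and the median log2 change of all genes was 0.02. DESeq2 called 622 genes, 2.31% of the 26917 to which it gave an adjusted p, and limma's voom with quality weights called 5. Without all 5 libraries of sheep 687, edgeR called 6 genes, all higher in motor cortex: SEMA3E, NXPH4, NXPH3, GALNT14, ARMH4 and a gene with a placeholder symbol. The names beside SEMA3E and NXPH4 were chosen after their values were seen. NXPH3 and NXPH4 encode neurexophilins, secreted ligands of neurexins, and GALNT14 encodes an enzyme that starts O-linked glycosylation.

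Genes of layer 6 leaned higher. Of 15 tested, 7 were higher and 1 lower at an unadjusted p below 0.05, including the called SEMA3E. Over all genes 7.75% were higher and 7.52% lower. The list's median log2 change was 0.35 against 0.02 over all genes. Without the library labelled motor cortex of sheep 687 the counts were 8 and 2 and the median was 0.55, where 8.46% of all genes were higher and 8.12% lower. Without the motor library of sheep 699 the counts were 4 and 1, where 1132 of all 20245 genes were higher and 1226 lower. The mean level of the list on the log2(CPM + 1) scale was 3.39, 3.80, 3.84, 3.55 and 3.67 in motor cortex. It ran from 2.82 to 3.98 in the 20 others, so the groups overlapped. Motor cortex was above the mean of its own animal's other regions in 5 of 5.

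NXPH4, a marker of neurons at the deep edge of layer 6, was at 0.929, 6.04, 5.26, 2.61 and 8.38 CPM in motor cortex. Of the 20 other libraries, 19 lay at or below 2.99 CPM and the frontal library of sheep 694 was at 8.87. The log2 change was 1.78 ± 0.41, with an edgeR adjusted p of 0.109, and 2.16 ± 0.36 with 0.0888 when the library labelled motor cortex of sheep 687 was left out. SYT6, a synaptotagmin of layer 6 neurons, was at 15.5, 8.67, 10.4, 17.4 and 17.0 CPM in motor cortex, where 3 of 20 other libraries exceeded the lowest motor value. Its log2 change was 1.46 ± 0.28 with an edgeR adjusted p of 0.101, and motor cortex was higher in 5 of 5 animals.

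Other layer 6 genes went both ways. FOXP2, a transcription factor of corticothalamic neurons, was at 0.641 CPM in the library labelled motor cortex of sheep 687 and at 6.28, 6.53, 4.31 and 9.01 in the other motor libraries, with a log2 change of 1.32 (adjusted p 0.183, edgeR). TLE4, a corepressor of the same neurons, was at 19.9, 23.5, 31.9, 27.5 and 41.8 CPM, and its log2 change was 0.44 with 0.188. RPRM had a log2 change of 1.07 and HS3ST4, a heparan sulphate sulphotransferase, one of 0.65. TBR1 belongs to the list as well and was low in the library labelled motor cortex of sheep 687, as given above. ZFHX3, a homeobox transcription factor of the same list, was lower in 5 of 5 animals, with a log2 change of -0.57 ± 0.20 (adjusted p 0.185, edgeR). OPRK1, the kappa opioid receptor, and CCN2, a matricellular protein, were lower in 4 of 5 animals, and NTNG2, a netrin-related protein, in 3 of 5. NTSR1, a neurotensin receptor, had a log2 change of 0.18. It was lower in sheep 694 and 699, with differences of -1.12 and -1.58 on the log2(CPM + 0.5) scale. None of these passed the test.

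**Figure D2:**
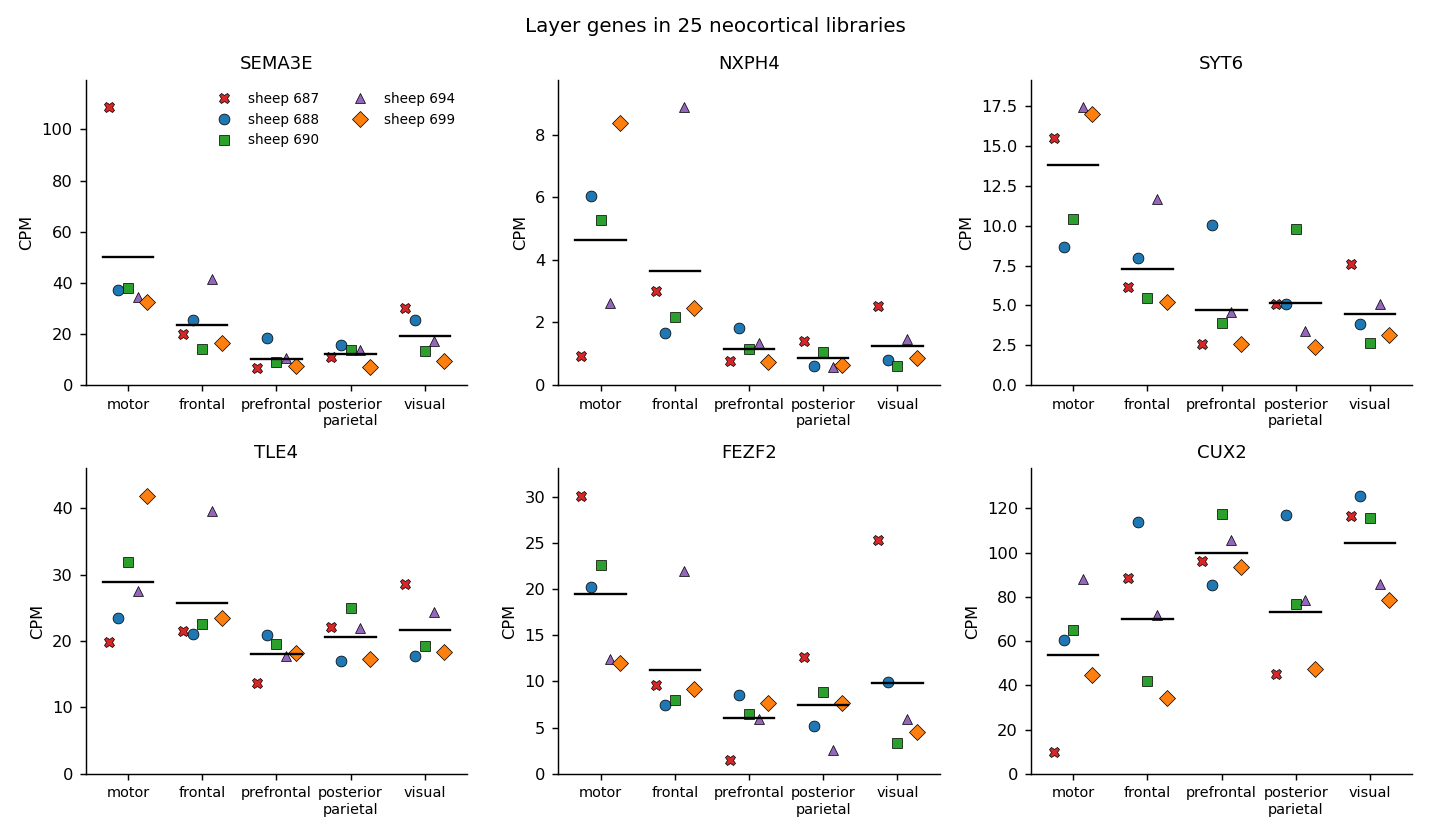
Levels (CPM) of SEMA3E, NXPH4, SYT6, TLE4, FEZF2 and CUX2 in 25 neocortical libraries by region, each point 1 sheep and each line the mean of 5. SEMA3E is between 32.3 and 109 CPM in motor cortex and reaches 41.5 in the frontal library of sheep 694; CUX2 is at 9.77 CPM in the library labelled motor cortex of sheep 687.

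Layer 5 genes, the class that holds the corticospinal neurons, leaned higher with no member called. Of 24 tested, 8 were higher and 1 lower at an unadjusted p below 0.05, against 7.75% and 7.52% of all genes. Of the 24, 21 had a log2 change above 0. The median was 0.31, or 0.37 without the library labelled motor cortex of sheep 687. The mean level of the list was 4.31, 4.54, 4.44, 3.96 and 3.88 on the log2(CPM + 1) scale. It was above the mean of the animal's other regions in sheep 687, 688 and 690 and below that mean in sheep 694 and 699.

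FEZF2 was at 30.0, 20.2, 22.6, 12.5 and 12.0 CPM in motor cortex. In frontal cortex it was at 9.58, 7.43, 7.96, 22.0 and 9.21 CPM, and 3 of the 20 other libraries exceeded the lowest motor value. Motor cortex was above the mean of the other regions in 5 of 5 animals. It was the highest of the 5 regions in 4, again with sheep 694 as the exception. The mean was 19.5 ± 7.54 CPM (SD, n = 5) against 8.61, and the log2 change of 1.19 ± 0.37 had an adjusted p of 0.153 in edgeR. BCL11B, at 11.0, 18.8, 17.1, 13.8 and 13.4 CPM, had a log2 change of 0.09 ± 0.16 (adjusted p 0.829, edgeR), and 17 of 20 other libraries lay above its lowest motor value. The sign of this small difference turned without the libraries of sheep 688 (-0.10).

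CHST8, a sulphotransferase, was at 20.5, 15.6, 13.1, 8.32 and 6.61 CPM, above the mean of the other regions in 5 of 5 animals. Its log2 change was 1.06 ± 0.30 (adjusted p 0.13, edgeR). CRYM, the thyroid hormone binding protein mu-crystallin, was at 109, 102, 84.8, 35.9 and 37.3 CPM, with a log2 change of 0.61 ± 0.32 (adjusted p 0.382, edgeR), and 0.25 without the libraries of sheep 688. Its frontal values reached 130 CPM, so the 2 regions overlapped. ETV1, a layer 5 transcription factor, was at 135 CPM in the library labelled motor cortex of sheep 687 and at 27.4 to 37.9 in the other motor libraries. The log2 change of 0.76 became 0.23 without that library.

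SPP1, osteopontin, is made by large layer 5 neurons and also by myelinating and immune cells. It was at 82.8, 44.2, 66.0, 63.4 and 229 CPM in motor cortex, with a log2 change of 1.14 ± 0.33 (adjusted p 0.137, edgeR). The library of sheep 699 was the highest of all 25 libraries and also held the most myelin RNA, as described below. Without it the change was 0.46, and with the myelin level of each library as a covariate it was 0.13.

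Large axons are built on neurofilaments. In the list of neurofilament and axonal transport genes 11 were tested. At an unadjusted p below 0.05, 5 were higher and 2 lower, against 7.75% and 7.52% of all genes. The median log2 change was 0.16. That median was 0.26 without the library labelled motor cortex of sheep 687. Without the motor library of sheep 699, 12 genes of the list were tested, with a median of 0.20, 3 higher and 2 lower. In that setting 1132 of all 20245 genes were higher and 1226 lower. NEFH, the neurofilament heavy chain, was at 73.1, 115, 111, 125 and 94.6 CPM in motor cortex, a mean of 103.6 ± 20.2 (SD, n = 5) against 73.8 in the others, with a log2 change of 0.65 ± 0.21 (adjusted p 0.159, edgeR). It was above the mean of the other regions by about 1 or more on the log2 scale in sheep 690, 694 and 699 (1.08, 0.99 and 1.16). In sheep 687 and 688 it was within 0.11 of that mean. MAP1B, a microtubule-associated protein of axons, was above the mean of the other regions in 5 of 5 animals. Its log2 change was 0.55 ± 0.14 (adjusted p 0.121, edgeR). KIF5A, a kinesin motor of axonal transport, was below that mean in 5 of 5, with -0.56 ± 0.17 (edgeR adjusted p 0.151).

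Fast-spiking channels and interneuron genes were mixed. Of 18 tested channel genes, 2 were higher and 0 lower at an unadjusted p below 0.05, against 7.75% and 7.52% of all genes. The median log2 change was 0.14. That median was 0.32 without the library labelled motor cortex of sheep 687 and -0.04 without the motor library of sheep 699. KCNA1, a potassium channel subunit of axons, was at 57.4, 74.9, 82.6, 66.1 and 62.8 CPM, above the mean of the other regions in 5 of 5 animals. Its log2 change was 0.74 ± 0.21 with an edgeR adjusted p of 0.13. Of 21 interneuron genes, 4 were higher and 4 lower with a median of 0.07. ADARB2, a marker of interneurons from the caudal ganglionic eminence, had -0.80 ± 0.20 (edgeR adjusted p 0.121). VIP, a peptide of one such class, had -0.63 ± 0.21 (edgeR adjusted p 0.164). Both were lower in 5 of 5 animals. Leaving out each sheep gave -0.96 to -0.65 for ADARB2 and -0.73 to -0.45 for VIP.

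Layer 4 genes leaned lower. Of 12 tested, 0 were higher and 3 lower at an unadjusted p below 0.05, against 7.75% and 7.52% of all genes. The median log2 change was -0.32, or -0.21 without the library labelled motor cortex of sheep 687. With the myelin level of each library as a covariate it was -0.11, with 1 gene higher and 2 lower. In that setting 1136 of all 20045 genes were higher and 917 lower. PLXND1, which encodes the SEMA3E receptor plexin D1, was at 9.48, 35.5, 42.0, 32.9 and 25.9 CPM in motor cortex against a mean of 52.4 in the others, and it was the lowest of the 5 regions in 4 of 5 animals. Its log2 change was -0.89 ± 0.21 with an edgeR adjusted p of 0.117, and -0.63 with 0.216 without the library labelled motor cortex of sheep 687. Which cells of the bulk tissue held PLXND1 was not tested.

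RORB was at 1.67, 2.95, 4.43, 4.37 and 1.58 CPM in motor cortex, with a log2 change of -0.48 ± 0.32 (adjusted p 0.515, edgeR), and -0.27 without the libraries of sheep 699. The lowest value of CUX2 over all 25 libraries was in the library labelled motor cortex of sheep 687, and its 5 motor values were 9.77, 60.3, 64.9, 88.3 and 44.8 CPM. The log2 change of -0.72 ± 0.30 (edgeR adjusted p 0.253) became -0.39 without that library. Of 14 upper layer genes, 2 were higher and 2 lower at an unadjusted p below 0.05, against 7.75% and 7.52% of all genes. The median was -0.11, or -0.21 without the library labelled motor cortex of sheep 687.

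Guidance and receptor genes held members in both directions. In the axon guidance list 40 genes were tested. At an unadjusted p below 0.05, 9 were higher and 1 lower, against 7.75% and 7.52% of all genes. The median log2 change was 0.12. Without the library labelled motor cortex of sheep 687, 6 were higher and 3 lower, against 8.46% and 8.12% of all genes. Without the motor library of sheep 699 the median was 0.20. Of 29 receptors for acetylcholine, monoamines and peptides, 6 were higher and 3 lower, with a median of 0.15. These became 3 and 3 without the library labelled motor cortex of sheep 687, and 9 and 2 without the motor library of sheep 699. In the latter setting 1132 of all 20245 genes were higher and 1226 lower. CHRNA4, a nicotinic receptor subunit, was at 16.6, 14.1, 14.4, 8.32 and 8.97 CPM with 0.59 ± 0.15 (edgeR adjusted p 0.121), and CHRNA7, another, had -0.57 ± 0.15 (0.123). Of 20 genes linked to amyotrophic lateral sclerosis, the disease of upper and lower motor neurons, 4 were higher and 1 lower with a median of 0.07, and SOD1, the superoxide dismutase mutated in some families, had 0.27 ± 0.11 (0.224).

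Areal patterning factors, the transcription factors that set up cortical areas in the embryo, numbered 20 tested with a median of -0.06. At an unadjusted p below 0.05, 1 was higher and 1 lower, against 7.75% and 7.52% of all genes. SP8, a member of this list, had -0.98 ± 0.30 with an edgeR adjusted p of 0.148 and was lower in 5 of 5 animals. Of 17 retinoic acid genes, 1 was higher and 3 lower, with a median of -0.22, which was -0.37 without the library labelled motor cortex of sheep 687 and -0.10 without the motor library of sheep 699. ALDH1A1, which makes retinoic acid, had -1.42 ± 0.45 (edgeR adjusted p 0.153) and was lower in 5 of 5 animals. Its change ran from -1.70 to -1.06 when each sheep was left out. RXRG, a retinoid receptor, had 1.41 ± 0.44 (0.151), and 0.79 without the library labelled motor cortex of sheep 687.

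Of the remaining lists no member was called. Of 20 cadherins and adhesion molecules, 2 were higher and 2 lower at an unadjusted p below 0.05, against 7.75% and 7.52% of all genes. Their median log2 change was 0.13. Neuropeptides numbered 16 tested, with 4 higher and 1 lower and a median of 0.33. Heat shock genes, a sign of tissue stress, numbered 8, with 3 higher and 0 lower and a median of 0.09. The 3 became 1 without the library labelled motor cortex of sheep 687, where 8.46% of all genes were higher. They became 0 without the motor library of sheep 699, where 1132 of all 20245 genes were higher. Perineuronal net genes had a median of -0.04 (1 of 11 higher, 0 lower) and oligodendrocyte precursor genes -0.10 (0 of 10 higher, 2 lower). Lists for tissue next to the cortex had medians of -0.10 for striatum (2 of 10 higher, 2 lower), -0.24 for thalamus (0 of 8 higher, 3 lower) and -0.05 for hippocampus and claustrum (0 of 11 higher, 2 lower). Leaving out the library labelled motor cortex of sheep 687 gave medians of -0.20 for oligodendrocyte precursors, 0.06 for striatum, -0.12 for thalamus and -0.22 for hippocampus and claustrum. Of the blood genes only HBB was tested.

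**Figure D3:**
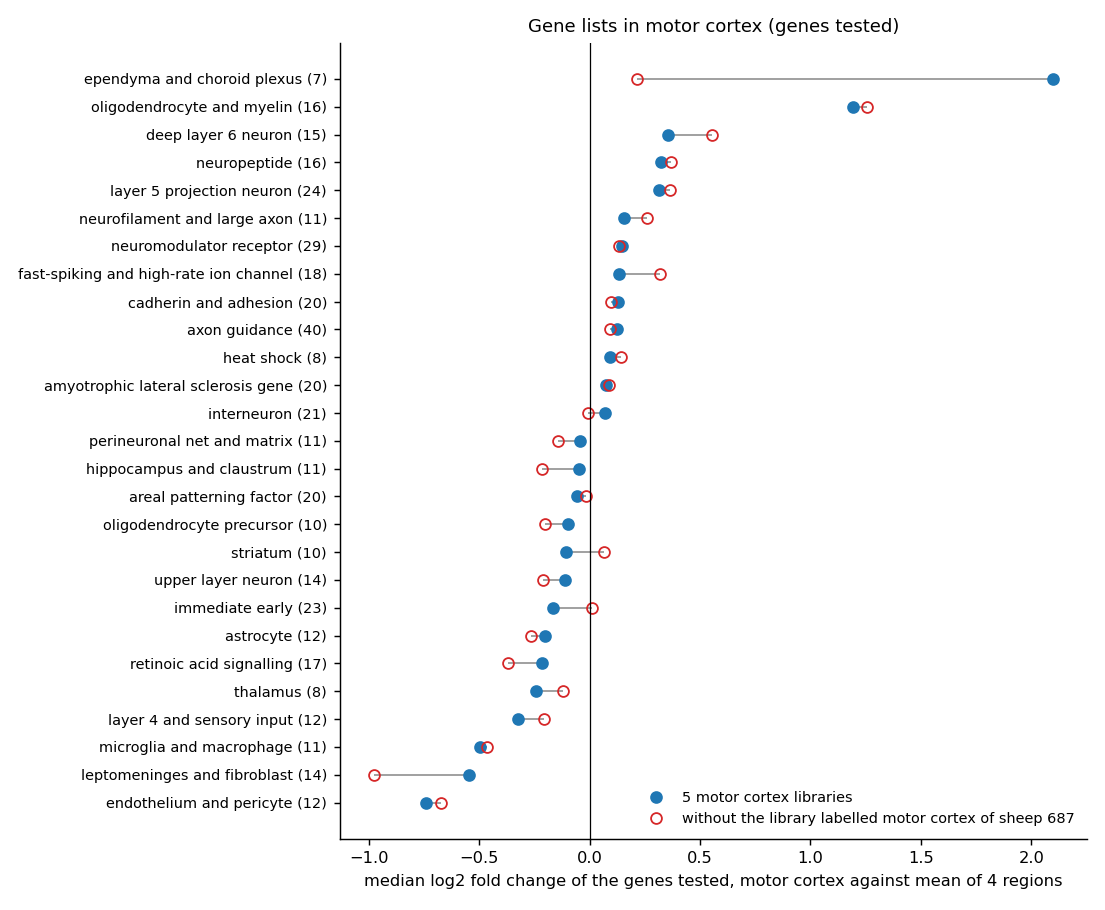
Median log2 change of motor cortex against the mean of the 4 other regions for each gene list with at least 5 tested members, over all 25 libraries and without the library labelled motor cortex of sheep 687. The oligodendrocyte list is at 1.19 and 1.26, microglia at -0.50 and -0.47, endothelium at -0.74 and -0.67, and the ependyma list moves from 2.10 to 0.21.

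The oligodendrocyte, microglial and endothelial lists had medians further from 0 than any neuronal list when all 25 libraries were used. All 16 oligodendrocyte genes had a log2 change above 0, 12 of them at an unadjusted p below 0.05 against 7.75% of all genes. The median was 1.19. The mean level of the list was 6.96, 6.33, 7.04, 6.89 and 8.68 on the log2(CPM + 1) scale, with a range of 5.15 to 7.79 in the 20 others, so that the motor library of sheep 699 lay above all of them. Without that library 1 of 16 reached an unadjusted p below 0.05, against 2358 of all 20245 genes tested, and the median was 0.52. How much white matter each piece held was not tested.

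MBP, myelin basic protein, was at 2364, 1508, 2589, 4674 and 21411 CPM in motor cortex. Its log2 change was 0.91 ± 0.61 over all libraries and -0.19 ± 0.52 without the motor library of sheep 699. Within animals the differences were -0.46, -0.46, 0.70, 0.27 and 3.55 on the log2(CPM + 0.5) scale. TF, transferrin, which oligodendrocytes make in the brain, was at 277, 177, 295, 266 and 970 CPM. The log2 change was 1.29 ± 0.35 (edgeR adjusted p 0.129), and 0.60 ± 0.29 without the library of sheep 699. CLDN11, the tight junction protein of myelin, was at 140, 69.5, 104, 77.1 and 271 CPM with 1.22 ± 0.34 (0.129), and 0.76 without that library. With the myelin list's level as a covariate, SEMA3E had a log2 change of 1.48 (adjusted p 0.374, edgeR), SYT6 0.96 and FEZF2 1.05.

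Microglial genes were lower in motor cortex together, with no member called. All 11 had a log2 change below 0, 10 at an unadjusted p below 0.05 against 7.52% of all genes, and the median was -0.50. CSF1R, the receptor that microglia need to survive, was at 45.4, 38.3, 70.7, 71.8 and 74.7 CPM, and motor cortex was the lowest of the 5 regions in 5 of 5 animals. The mean was 60.2 ± 17.0 CPM (SD, n = 5) against 96.0, and the log2 change of -0.65 ± 0.14 had an adjusted p of 0.101 in edgeR. ITGAM, an integrin of microglia and macrophages, was at 5.83, 5.32, 9.61, 8.02 and 7.52 CPM against a mean of 13.8. It too was the lowest in 5 of 5, with -0.82 ± 0.17 (0.101).

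Endothelial genes followed the same order. Of 12 tested, 10 were lower and 0 higher at an unadjusted p below 0.05, against 7.52% and 7.75% of all genes. The median log2 change was -0.74, or -0.67 without the library labelled motor cortex of sheep 687. ESAM, an adhesion molecule of endothelial junctions, was at 5.14, 8.62, 11.7, 16.1 and 18.1 CPM with -0.76 ± 0.21 (edgeR adjusted p 0.129), and FLT1, a receptor for vascular endothelial growth factor, had -0.88 ± 0.26 (0.137). PLVAP, a protein of endothelial diaphragms that was not on the list and was chosen after its values were seen, was at 4.66, 3.43, 4.34, 6.05 and 5.75 CPM, the lowest of the 5 regions in 5 of 5 animals. Its log2 change was -0.71 ± 0.12, with an edgeR adjusted p of 0.0589 and a DESeq2 adjusted p of 4.53e-06.

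**Figure D4:**
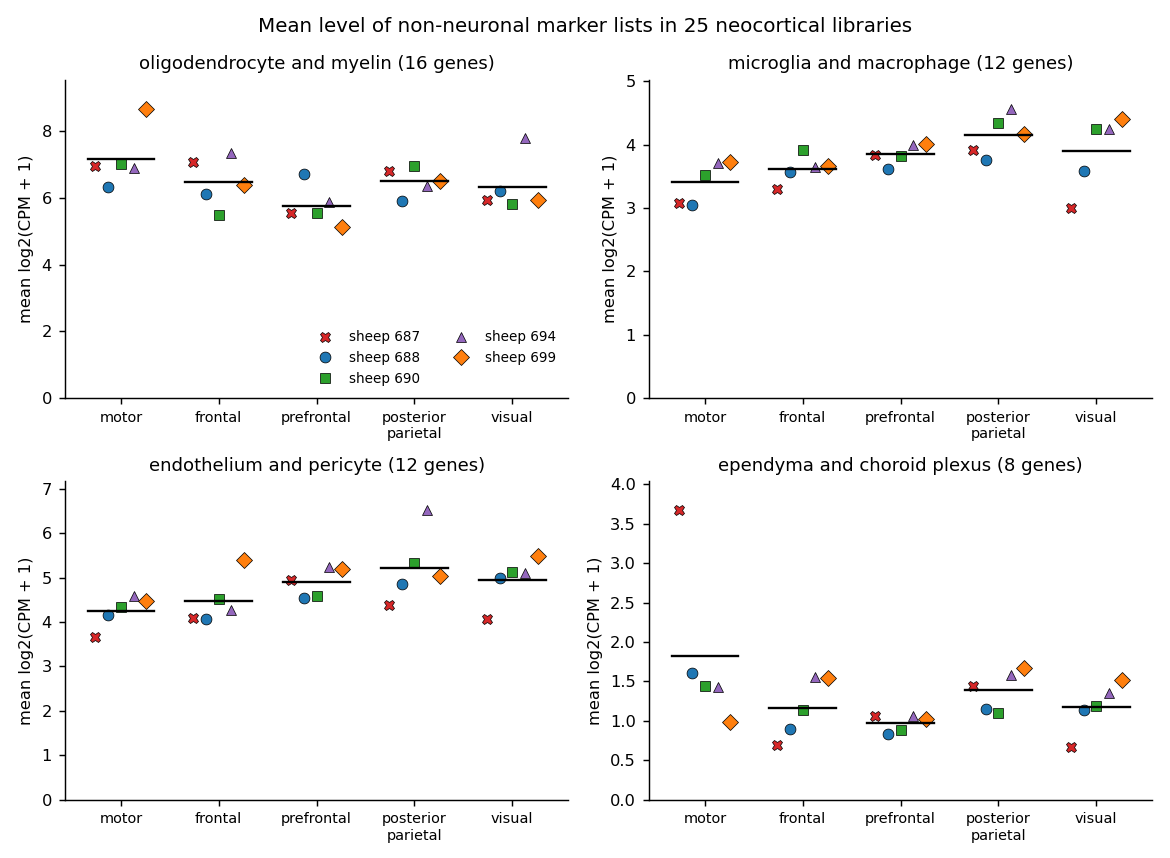
Mean level, as log2(CPM + 1), of the oligodendrocyte, microglia, endothelium and ependyma lists in 25 libraries by region, each point 1 sheep and each line the mean of 5. The motor library of sheep 699 is at 8.68 for oligodendrocytes, the library labelled motor cortex of sheep 687 at 3.67 for ependyma, and the parietal library of sheep 694 at 6.51 for endothelium.

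Libraries differed within each region in these lists. The parietal library of sheep 694 was the highest of the 25 for microglia (4.57) and endothelium (6.51). The library labelled motor cortex of sheep 687 was the highest for ependyma at 3.67, where the other 4 motor libraries were at 0.99 to 1.60 and the 20 others at 0.67 to 1.67. The ependyma list had a median log2 change of 2.10, and 0.21 without that library. Leptomeningeal genes had a median of -0.54 with 3 of 14 lower at an unadjusted p below 0.05, against 7.52% of all genes. Without the library labelled motor cortex of sheep 687 the median was -0.98 with 5 lower, against 8.12%. The 12 astrocyte genes had a median of -0.20 with 0 at an unadjusted p below 0.05.

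Some genes had a fixed place among the regions in every animal. Motor cortex was the highest of the 5 regions in 5 of 5 animals for 6 genes (0.0299% of those tested) and the lowest for 32 (0.16%). ABHD10, a mitochondrial thioesterase and 1 of the 6, was at 23.0, 20.8, 17.4, 20.4 and 21.8 CPM against a mean of 16.7, with a log2 change of 0.32 ± 0.07 (adjusted p 0.101, edgeR). The 32 included CSF1R, ITGAM and PLVAP, CD86, a costimulatory molecule of myeloid cells, and NGB, neuroglobin. These genes were picked by their order in the same values, so the order is a description.

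DUSP1 and CIMIP2A were the 2 genes (0.00998%) with all 5 motor libraries below all 20 others, and no gene had all 5 above (0%). DUSP1, a phosphatase of the immediate early response, was at 24.9, 25.0, 19.2, 27.5 and 22.6 CPM in motor cortex, while the others ran from 27.7 in the frontal library of sheep 694 to 292 in the parietal library of the same animal. The log2 change was -1.14 ± 0.43 with an edgeR adjusted p of 0.217. Of the 23 immediate early genes tested, 4 were lower and 0 higher at an unadjusted p below 0.05, against 7.52% and 7.75% of all genes. CCN1 was at 6.36, 8.08, 7.12, 11.7 and 8.80 CPM with -1.40 ± 0.50, and the list's median was -0.16, or 0.01 without the library labelled motor cortex of sheep 687.

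Motor cortex was then compared with each region alone. All 4 comparisons share the 5 motor libraries and 1 fit. Against frontal cortex edgeR called 0 genes (0%), with 590 at an unadjusted p below 0.05 (2.94%), 46 by DESeq2 and 0 by voom. Without all libraries of sheep 694 edgeR also called 0, with 1147 at an unadjusted p below 0.05. No fit left out only the frontal library of that sheep. SEMA3E was 1.06 ± 0.32 above frontal cortex on the log2 scale, FEZF2 0.70 ± 0.52 and NXPH4 0.53 ± 0.55, each with an edgeR adjusted p of 1. Against visual cortex edgeR also called 0 (0%), with 2047 at an unadjusted p below 0.05 (10.2%), 134 by DESeq2 and 2 by voom. Against prefrontal cortex SEMA3E was the 1 call (0.00499%), with a log2 change of 2.23 ± 0.33 (adjusted p 0.0314, edgeR).

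Against posterior parietal cortex 886 genes were called (4.42%), 324 higher in motor cortex (1.62%) and 562 lower (2.8%). The layer 6 genes SEMA3E, NXPH4 and SYT6 were higher by 2.00, 2.50 and 1.48 on the log2 scale, with edgeR adjusted p of 0.0126, 0.0243 and 0.0419. SLIT1, a secreted repellent of growing axons, was at 126, 99.7, 86.9, 36.6 and 37.1 CPM in motor cortex and at 27.4, 20.7, 26.9, 18.5 and 18.4 in parietal cortex. It was higher in motor cortex by 1.76 with an edgeR adjusted p of 0.0234. SSTR2, a somatostatin receptor, was at 32.4, 38.0, 28.9, 28.3 and 25.2 CPM against 13.6, 13.8, 7.69, 9.08 and 20.2. It was higher by 1.27 (edgeR adjusted p 0.0188).

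The parietal calls also took in 6 of 11 microglial and 6 of 12 endothelial genes, all lower in motor cortex. Of all genes tested, 2.8% were called lower in this comparison. The medians of these lists were -0.80 and -1.20, against 0.02 over all genes. CSF1R was at 97.6, 91.2, 169, 170 and 111 CPM in parietal cortex and lower in motor cortex by a log2 change of -1.09 (adjusted p 0.0102, edgeR). ESAM was lower by -1.23 (0.0200) and FLT1 by -1.41 (0.0221). MAP1B was higher by 0.89 (0.0181) and KCNA1 by 1.03 (0.0415).

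The number of calls against parietal cortex depended on single libraries and animals. Without the parietal library of sheep 694, 6 genes were called, all lower in motor cortex, among them CSF1R (-1.05, edgeR adjusted p 0.0456) and PLVAP (-1.05, 0.0345). SEMA3E then had 2.00 with an edgeR adjusted p of 0.0503, SLIT1 1.69 (0.0831), SSTR2 1.16 (0.0701) and ESAM -0.88 (0.0768). Of these genes SEMA3E kept its size and ESAM moved the most. Sizes without that library are not given here for most other genes called against parietal cortex. Without the library labelled motor cortex of sheep 687 there were 615 calls (3.04%), without the motor library of sheep 699 there were 432, and without all libraries of sheep 688, 690 or 694 there were 0. With the animals not kept as a block the count was 0, and with the myelin covariate it was 581.

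Against the mean of the 3 regions other than frontal cortex 256 genes were called (1.28%), 98 higher (0.489%) and 158 lower (0.788%). Without the library labelled motor cortex of sheep 687 there were 3 (0.0148%): SEMA3E, NXPH4 (log2 change 2.58) and PLVAP (-0.87). Without the motor library of sheep 699 there were also 3, and without the parietal library of sheep 694 there were 150. The same fit, set to compare each other region with the mean of its own 4 counterparts, called 0 genes in frontal, 0 in prefrontal, 133 in posterior parietal and 0 in visual cortex. The 133 parietal calls became 2 without the parietal library of sheep 694, and 0 with no replicate block or without all the libraries of sheep 688, 690 or 694. No gene was called against each of the 4 regions (0).

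**Figure D5:**
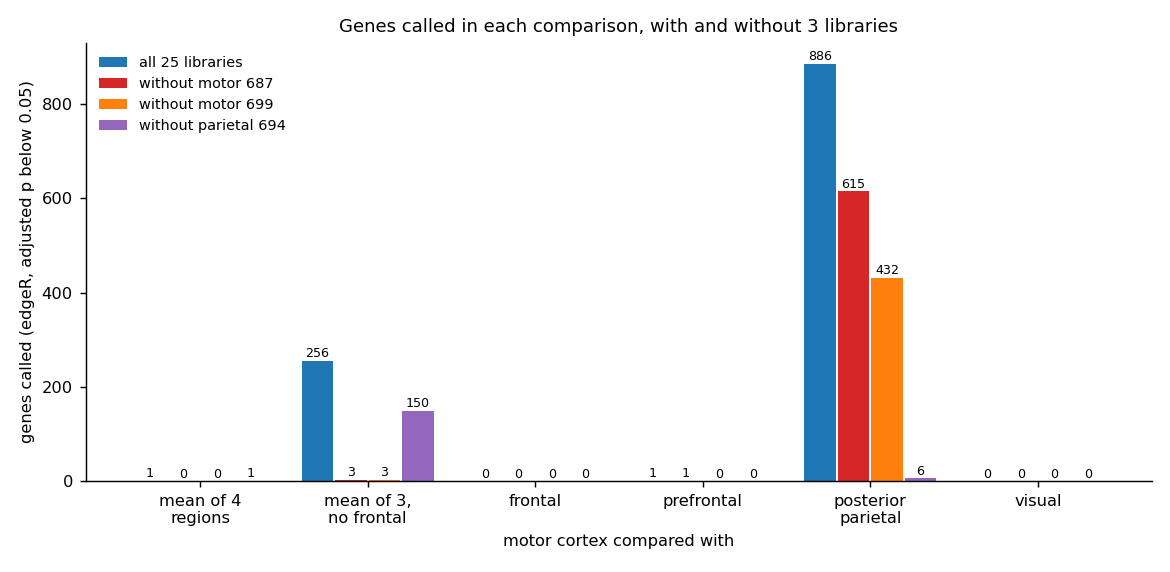
Genes called by edgeR at an adjusted p below 0.05 in motor cortex against each other region, their mean, and the mean without frontal cortex, with all 25 libraries and without 1 library at a time; the vertical axis counts genes. The parietal comparison has 886 calls with all libraries and 6 without the parietal library of sheep 694; the comparison with the mean of 4 regions does not exceed 1 in these settings.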

How the data were processed

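RNA was sequenced from 5 motor cortex and 20 other neocortical libraries of 5 sheep. Per the labels, the authors deposited raw counts per gene for each library, not normalized, after trimming with Trimmomatic 0.39, alignment with STAR 2.7.5a to ARS-UI_Ramb 3.0 and counting with Rsubread 2.20.0 (per the series design and the submitters' processing notes). Whether counting used strand, and how reads with several matches were treated, is not given in the sources used here, so overlapping, antisense and near-identical genes are uncertain, and no sheep annotation was used.

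The test was edgeR's (version 4.0.16, under R 4.3.3): trimmed-mean-of-M-values factors, the default low-count filter by region, a quasi-likelihood fit of region plus animal over 25 libraries, and a contrast of motor cortex with the equally weighted mean of 4 regions or with each region. Genes with a Benjamini-Hochberg adjusted p below 0.05 over all 20045 tested are called. The script was tested on simulated data with 200 changed genes. Differences within an animal are motor cortex minus the mean of the other 4 regions, on log2(CPM + 0.5). Higher or lower in an animal refers to that mean. A list's level is the mean log2(CPM + 1). The animal pairs the libraries, per the labels; deviations from region means had a median r of 0.241 over 50 same-animal pairs and -0.051 over 200 others, computed across genes.

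Alternatives were other factors, no filter, no animal block, a myelin covariate, leaving out each sheep or reference region, summed reference regions, limma 3.58.1 (voom) and DESeq2 1.42.0; leaving out 1 or 2 libraries was added after seeing the data. The contrast and the 28 gene lists were chosen with earlier results of these data known. Named genes are the called ones with a mean of at least 5 CPM and 1 sign in all 5 animals (at most 12 per direction), every called list member up to 4 or else the 2 with the smallest p, and FEZF2, BCL11B, CRYM, NEFH, SPP1, RORB and CUX2. Further names in the text, the label-check genes, other list members, genes picked by order and genes called in other comparisons, were chosen after their values were seen. Among the 25 libraries 0 pairs held identical values. 1 gene of the label check is not reported here.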

Additional observations from a re-analysis of the deposited data

Results flagged for a closer look

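Of 54 named genes, those below had 1 motor library far from the other 4: its gap to the nearest, divided by the range of the 5 CPM values, was above 0.71, the limit of Dixon's ratio for 5 samples. Chance alone flags about 1 in 20 groups, and no gene was flagged when the within-animal log2 differences were used. The library labelled motor cortex of sheep 687 was the distant one for SEMA3E (ratio 0.927), TTR (0.923), KL, an ageing-related protein of choroid plexus (0.888), VIP (0.822), RXRG (0.815), GLRA3, a glycine receptor subunit (0.743), CDH22, a cadherin (0.742), and DRD2, a dopamine receptor (0.728). It was high in all of these but VIP, at 12.1 CPM against 30.4 to 34.4, and CDH22, at 8.57 against 27.3 to 33.8. The motor library of sheep 699 was the distant one, and high, for TF (0.852), HAPLN2, a link protein of myelinated axons (0.848), SPP1 (0.791), HBB, a haemoglobin chain at 0.792 CPM (0.784), and SMIM32 at 0.559 CPM (0.724). NEUROD6, a factor of excitatory neurons, was high in sheep 688 (0.848), at 65.0 CPM against 34.0 to 38.7. AGT, the angiotensinogen of astrocytes, was high in sheep 694 (0.780), at 475 CPM against 285 to 327.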

How the results depend on the processing

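Against the mean of 4 regions edgeR called 1 gene, and the count was 35 with no replicate block, 2 with no low-count filter, 5 with voom, 622 with DESeq2, 0 with reference regions summed per animal, 0 with the replicate block and a myelin covariate, 256 with frontal cortex left out of the reference, and 0 with prefrontal or parietal cortex left out. It was 0 without the library labelled motor cortex of sheep 687 and 0 without the motor library of sheep 699. Leaving out each sheep gave 0 to 6. Against frontal cortex (0 calls) DESeq2 called 46 and leaving out each sheep gave 0 to 1. Against prefrontal cortex (1 call) the count was 414 with DESeq2, 2 with voom, 2 with upper quartile factors, 0 with the block and myelin covariate, 0 without the motor library of sheep 699, 0 without the parietal library of sheep 694, and 0 to 5 without each sheep. Against parietal cortex (886 calls) it was 2151 with DESeq2, 1355 with voom, 0 with no replicate block, 581 with the block and myelin covariate, 432 without the motor library of sheep 699, 6 without the parietal library of sheep 694, and 0 to 989 without each sheep. Against visual cortex (0 calls) it was 134 with DESeq2, 2 with voom and 0 to 0 without each sheep. Leaving out the motor libraries of sheep 687 and 699, or that of sheep 687 with the parietal library of sheep 694, gave 0 calls against the mean, prefrontal and parietal cortex. The cause of these shifts was not tested. For the named genes, 1553 values kept direction and side of the threshold, 281 became weaker, 56 stronger, and 1 changed sign. That was BCL11B, at -0.10 without replicate 688 and up to 0.21 without replicate 687. A value also counts as kept where the gene was called in neither setting. MBP, whose sign turned without the motor library of sheep 699, was outside this tally. Genes under the low-count filter were not tested. In the main fit, p-values measure the spread left after region and animal are fitted, over 25 libraries of 49.2 to 72.4 M reads.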
